A study of Mus musculus with 4 samples.

Results

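The 41 genes described here act at the G1/S boundary and in DNA replication. They were chosen by symbol, as a list of genes known for their part in S phase, and all 41 were found among the 31053 genes of the deposited feature table. The study took mice whose lungs carried orthotopically injected small cell lung cancer (SCLC), a neuroendocrine lung cancer, and made 10x single-cell RNA libraries from the digested whole lungs. Control mice were given vehicle with isotype IgG. The anti-PD-1 group received antibody clone 29F.1A12 at 200 µg per mouse, 3 times a week. The third group received YKL-5-124, an inhibitor of the kinase CDK7, at 10 mg/kg on weekdays, and the combination group received both agents. Each group is 1 library, and the number of animals behind a library, their strain and their age are not given in the labels. No value below therefore has a replicate error, no test between groups was possible, and the intervals in parentheses are exact 95% intervals that cover counting error only.

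In G1 phase a cell loads the MCM helicase onto replication origins with the help of Cdc6, and on entering S phase it activates the helicase with Cdc45 and the GINS complex. E2F transcription factors, released from RB proteins by cyclin-dependent kinases, drive most of these genes together with those for nucleotide synthesis, the replication fork, histone supply and the S phase checkpoint. SCLC cells usually lack RB and cycle continuously, whereas most T cells rest until an antigen activates them. CDK7 is part of both the kinase that activates other cyclin-dependent kinases and the general transcription factor TFIIH. Anti-PD-1 antibody blocks an inhibitory receptor on activated T cells.

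Promoters are shown because many of these genes are textbook E2F targets. RefSeq (GRCm38.p6) gave a window from 250 bases before to 50 bases after the start for 31 of the 41 genes. The E2F letters TTTCCCGC or TTTGGCGC, on either strand, were in the windows of 10 of these 31 genes (32.3%), against 1.80% of 27025 genes. These 10 were Casp8ap2, Cdc6, Cdca7, Dtl, Hells, Mcm5, Mcm6, Pola1, Pold3 and Ubr7. TTTCCCGC alone was found in 16.1% against 1.24% of all genes, and TTTGGCGC in 16.1% against 0.585%. The letters CCAAT were in 71.0% against 41.1%. TTTGAA, the core of an element known from G2/M genes, was in 19.4% against 20.2%. A match describes these letters and is not a mapped binding site. The 160 bases before the start of 3 genes of helicase loading follow, 5′ to 3′ on the gene's strand, with the E2F letters and CCAAT in either orientation in capitals. Mcm5 is at chr8:75109349-75109508 on the plus strand, Mcm6 at chr1:128359706-128359865 on the minus strand and Cdc6 at chr11:98907991-98908150 on the plus strand.
Mcm5: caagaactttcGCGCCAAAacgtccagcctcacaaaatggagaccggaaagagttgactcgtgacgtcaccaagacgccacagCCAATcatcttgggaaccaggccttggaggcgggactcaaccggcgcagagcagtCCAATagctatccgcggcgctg
Mcm6: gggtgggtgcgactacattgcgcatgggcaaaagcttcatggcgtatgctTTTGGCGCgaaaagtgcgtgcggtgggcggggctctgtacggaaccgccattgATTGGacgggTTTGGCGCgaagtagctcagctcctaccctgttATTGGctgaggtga
Cdc6: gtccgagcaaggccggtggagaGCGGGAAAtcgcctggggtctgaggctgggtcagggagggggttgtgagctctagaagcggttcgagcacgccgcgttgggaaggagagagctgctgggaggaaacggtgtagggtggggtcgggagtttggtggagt
The Mcm6 stretch holds the E2F letters at 2 places, and the other stretches at 1 place each.

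Cells were barcodes with at least 500 unique molecular identifiers (UMIs, one count per captured transcript), 300 or more detected genes and no more than 10% mitochondrial UMIs, and 14411 passed. The libraries shared cell barcodes: 658 passed in at least 2 libraries and 450 in all 4. Barcodes of at least 20000 UMIs reappeared in each other library with a median of 1.997% to 3.07% of their UMIs. The 1512 cells with at least 10 times their UMIs under the same barcode in another library were therefore left out as copies, of which 1131 were tumour cells. This left 3153 control, 2289 anti-PD-1, 3801 YKL-5-124 and 3656 combination cells, with median depths of 2084 to 2472 UMIs and library totals of 17329001 to 22950622 UMIs. Classes were gated by marker genes, and 1165 of 12899 cells (9.03%) stayed outside the gates. Chga, a protein of neuroendocrine secretory granules, was at 359.6 to 391 CPM (UMIs scaled to the class total) in tumour cells. Cd3e was at 441 to 513 CPM in T cells. Both are markers of the gates themselves, so their levels are no separate check of the class names. In tumour cells, whose gate held the most copies, the summed level of the 41 genes with copies kept was 7114, 6902, 7655 and 7061 CPM, against 7113, 6890.4, 7679 and 7089 without them. Here and below 4 values in a row are those of the control, anti-PD-1, YKL-5-124 and combination libraries, and copies are left out.

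Tumour cells had the highest summed level of the 41 genes in every library, and lymphocytes had less. T cells were at 1279, 1297, 2295 and 1892 CPM, and NK cells, the innate cytotoxic lymphocytes, at 1732, 1738, 2158 and 2034 CPM. B cells were at 1203, 1023, 1224 and 1272 CPM, and monocytes and macrophages at 724, 623, 591 and 656 CPM. The lowest tumour library thus lay above the highest library of each of these classes, and the monocyte and macrophage values lay below every lymphocyte value. The YKL-5-124 and combination libraries stood above control in T and NK cells, and not in monocytes and macrophages. In B cells they were near control, at 1.018-fold and 1.057-fold, with lowest values under other processing of 0.966 and 0.953. Neutrophils, described below, were also above control in both of these libraries, and tumour cells with YKL-5-124 only. Free RNA, read from barcodes with 10 to 100 UMIs, held the 41 genes at 4364, 3889, 4067 and 3449 CPM. Markers of tumour cells, summed over 19 genes, were in T cells at 2.75%, 3.26%, 3.21% and 3.57% of their free RNA level, with 16 to 18 of the 19 detected. The T cell gate itself limits these markers, so their low level is no separate check. The 41 genes were in T cells at 29.3%, 33.3%, 56.4% and 54.9% of theirs. The UMI method counts transcripts by their end, so CPM does not scale with gene length. In such sums, more cells in S phase and more RNA of these genes per cell cannot be told apart.

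**Figure D1:**
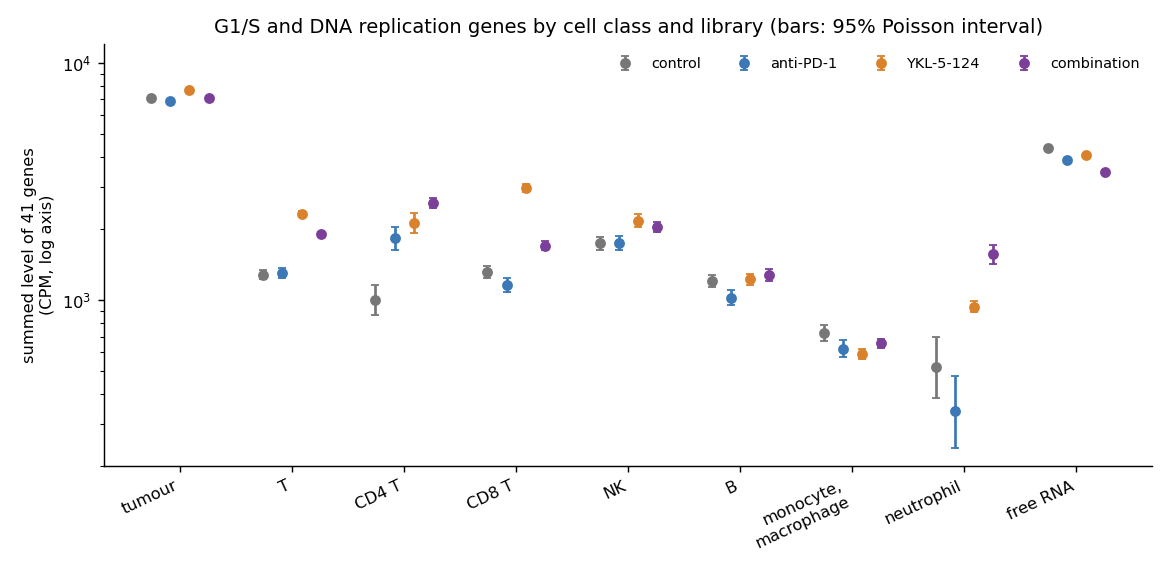
Summed level of the 41 genes (CPM, log axis) in each gated class and in free RNA, 1 point per library, with exact 95% Poisson intervals. Tumour cells lie between 6890.4 and 7679 CPM, and in T cells the YKL-5-124 (2295) and combination (1892) points lie above control (1279) and anti-PD-1 (1297).

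T cells were the class in which most of these genes were higher with YKL-5-124. A gene counts as measured at 10 CPM or more in the mean of the libraries and as higher or lower at 1.5-fold in smoothed CPM (10 CPM added), a size limit with no test behind it. Of 41 genes 33 were measured in T cells, 30 of them also in control alone. Gins2, Clspn and Ccne2 were under 10 CPM in control and passed the minimum through libraries where they were higher. All of them are among the genes counted below as higher with YKL-5-124, and their part in the counts cannot be separated from this choice. With YKL-5-124, 19 of the 33 were higher, beside 5.82% of 6787 genes, and 0 were lower, beside 1.03%. In the combination 11 were higher, beside 7.06%, and 0 lower, beside 1.3%. With anti-PD-1 alone 0 were higher, beside 2.36%, and 0 lower, beside 1.13%. Over all 41 genes, unmeasured ones included, 23 were higher with YKL-5-124 and 12 in the combined group. The shares above cover measured genes only, so they are no background for these counts. Over the 33 genes the median log2 ratio was 0.03 with anti-PD-1, 0.62 for YKL-5-124 and 0.36 for the combination, beside 0.03, 0.09 and 0.07 for all genes. The summed level was 1.014-fold of control (0.953 to 1.08), 1.79-fold (1.71 to 1.89) and 1.48-fold (1.41 to 1.55) in the same order. With copies kept, these ratios stayed within their counting intervals. All 3 comparisons share the control library.

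The combination was below YKL-5-124 alone in T cells, at 0.824 of its summed level (0.792 to 0.858). No measured gene passed 1.5-fold between these libraries, beside 1.94% of all genes, and the median log2 ratio was -0.25.

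The genes of nucleotide supply stood highest in T cells. Their summed level was 106, 95.6, 355 and 286 CPM, a ratio to control of 3.33 (2.84 to 3.93) with YKL-5-124 and 2.68 (2.30 to 3.14) in the combination. Rrm2, the regulated subunit of ribonucleotide reductase, was at 40.98, 44.1, 173 and 138 CPM. Both libraries with YKL-5-124 were far above the other libraries, at 4.21-fold (3.27 to 5.48) and 3.36-fold (2.63 to 4.34) of control. Rrm1, the large subunit of the same enzyme, was at 34.6, 26.5, 90.8 and 74.7 CPM. Tyms, which makes thymidylate, was at 30.9, 24.99, 91.3 and 73.1 CPM. These enzymes had the same order of libraries, with anti-PD-1 lowest, and their YKL-5-124 ratios were 2.62 (1.957 to 3.55) and 2.96 (2.18 to 4.06).

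Helicase genes were uneven among themselves. Mcm5 was at 30.3, 33.8, 86.9 and 67.4 CPM, 2.86-fold with YKL-5-124 (2.10 to 3.95) and 2.22-fold in the combination. Mcm6 was at 92.6, 86.0, 156 and 118 CPM, and Mcm2 at 44.7, 41.2, 69.7 and 52.5 CPM. For these subunits of the same ring, YKL-5-124 ratios were 1.68 (1.39 to 2.04) and 1.56 (1.17 to 2.08), and Mcm4 was at 1.38 (1.06 to 1.80) with levels of 53.8, 61.7, 74.2 and 64.3 CPM. Of the 4 subunits, Mcm5 and Mcm6 were past the fold with YKL-5-124 and Mcm5 in the combination. Gmnn, the geminin that blocks renewed helicase loading, was at 37.8, 25.7, 84.7 and 68.1 CPM, 2.24-fold with YKL-5-124 (1.68 to 3.01). Gins2, a GINS subunit, was at 7.98, 9.56, 22.1 and 19.9 CPM, and Cdc45, its partner at the active helicase, at 10.6, 9.56, 17.2 and 21.2 CPM. Both were low in control and anti-PD-1. Gins2 passed the fold in both libraries with YKL-5-124 and Cdc45 in the combination only. Cdc6, the loading factor, was too low to be measured, at 2.66, 4.41, 12.7 and 10.1 CPM.

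Genes of the fork were also uneven. Pcna, the sliding clamp, was at 82.0, 110.3, 143 and 126 CPM, and YKL-5-124 was the highest library, at 1.75-fold (1.43 to 2.15). Prim1, the primase that starts each strand, was at 16.5, 18.4, 42.6 and 44.0 CPM, 2.58-fold (1.68 to 4.06) with YKL-5-124 and 2.67-fold (1.80 to 4.07) in the combination. Fen1, which trims Okazaki fragments, was at 29.3, 32.3, 60.9 and 46.2 CPM, and Pola1, the polymerase alpha catalytic subunit, at 10.6, 14.7, 28.8 and 19.0 CPM. In each of these genes both libraries with YKL-5-124 were above the other libraries. With YKL-5-124, 4 of 7 measured fork genes were higher, beside 5.82% of 6787 genes. Rpa2, Rfc2 and Pold3 stayed under the fold at ratios of 1.46, 1.57 and 1.39.

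Chromatin and histone genes included the most abundant member in T cells and one that did not follow the others. Slbp, which binds the stem-loop of histone mRNAs, was at 156, 146, 244 and 201 CPM, 1.57-fold with YKL-5-124 (1.35 to 1.82). Hells, a chromatin remodeller, was at 14.9, 25.7, 42.1 and 30.1 CPM, and Uhrf1, which recruits the maintenance DNA methyltransferase, at 14.4, 7.35, 28.8 and 20.6 CPM. Control was the lowest library for Hells and anti-PD-1 the lowest for Uhrf1, and both genes were highest with YKL-5-124. Nasp, a histone chaperone, was at 75.04, 59.5, 94.7 and 80.7 CPM, under the fold in each comparison. Atad2, a bromodomain ATPase, was at 80.4, 71.3, 69.7 and 74.7 CPM, with control the highest library and a YKL-5-124 ratio of 0.868 (0.680 to 1.11).

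Among repair and checkpoint genes 2 of 6 measured genes were higher with YKL-5-124, beside 5.82% of 6787 genes. Clspn, the claspin that relays fork stalling to the checkpoint kinase, was at 9.05, 7.35, 25.5 and 25.3 CPM, 2.81-fold (1.58 to 5.24). Tipin, a fork protection factor, was at 41.5, 44.8, 75.8 and 56.0 CPM, 1.83-fold (1.37 to 2.44). Ung, which removes uracil from DNA, was at 30.3, 26.5, 26.0 and 20.6 CPM, and Dtl, which targets the loading factor Cdt1 for destruction, at 18.1, 16.2, 16.6 and 22.5 CPM. Neither of these was past the fold, and Ung was lowest in the combination at 0.678 (0.468 to 0.986). Ccne2, a cyclin E, was at 4.79, 8.09, 17.2 and 10.4 CPM, 3.58-fold with YKL-5-124 (1.66 to 8.55), and E2f8, a repressor E2F, stayed unmeasured at 2.66, 3.68, 7.20 and 5.38 CPM. The genes with E2F letters in their promoter window did not stand apart in T cells: with YKL-5-124 the median log2 ratio was 0.59 over 9 measured genes with them and 0.64 over 16 without.

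**Figure D2:**
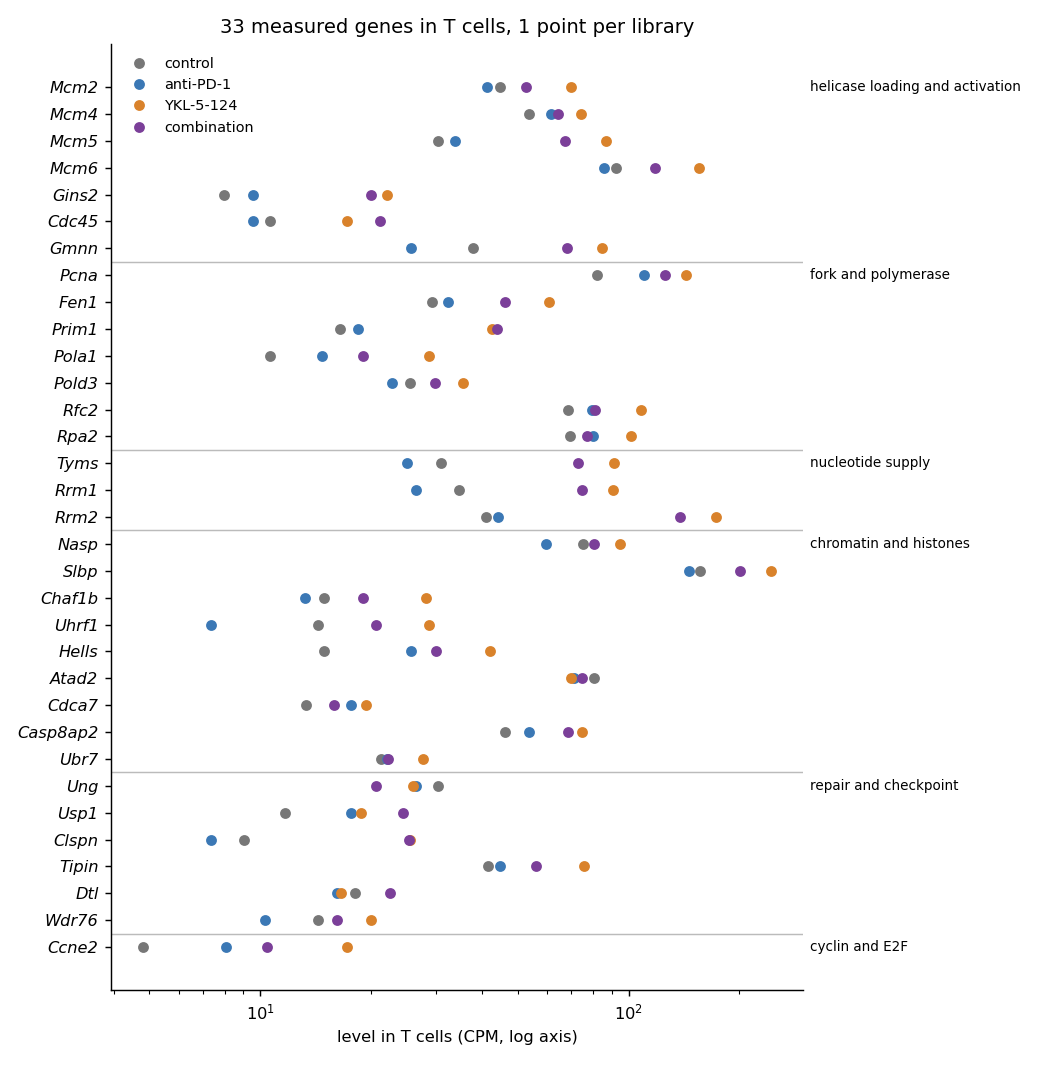
Level of each of the 33 measured genes in T cells (CPM, log axis), 1 point per library, grouped by role. For Rrm2 the YKL-5-124 point (173) and the combination point (138) lie apart from control (40.98) and anti-PD-1 (44.1), and for Atad2 the 4 points lie together between 69.7 and 80.4.

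Other replication genes, which are not among the 41, were described for comparison. Of 33 measured in T cells, 13 were higher with YKL-5-124 and 8 in the combination, beside 5.82% and 7.06% of 6787 genes. The same shares stand beside the G1/S regulators and the G2 and mitosis genes below. The 10 CPM minimum is on the mean of the libraries, and Tk1, named below, was under it in control. Lig1, the ligase of Okazaki fragments, was at 22.4, 28.7, 61.99 and 54.8 CPM. Mcm7, another helicase subunit, was at 40.98, 54.4, 98.0 and 77.9 CPM. Both were highest with YKL-5-124, as were Asf1b, a histone chaperone, at 26.1, 22.8, 98.0 and 68.4 CPM, and Tk1, a thymidine kinase, at 7.98, 16.9, 42.6 and 40.5 CPM. Of 16 measured G1/S regulators, 4 were higher with YKL-5-124 and 4 in the combination, among them Ccna2, the S phase cyclin A, at 13.3, 10.3, 68.6 and 52.5 CPM. Cdk7 itself was at 17.03, 15.4, 19.4 and 14.9 CPM. Of 46 measured G2 and mitosis genes, 39 were higher with YKL-5-124 and 33 in the combination, and their summed level was 2452, 2487, 5221 and 4595 CPM.

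**Figure D3:**
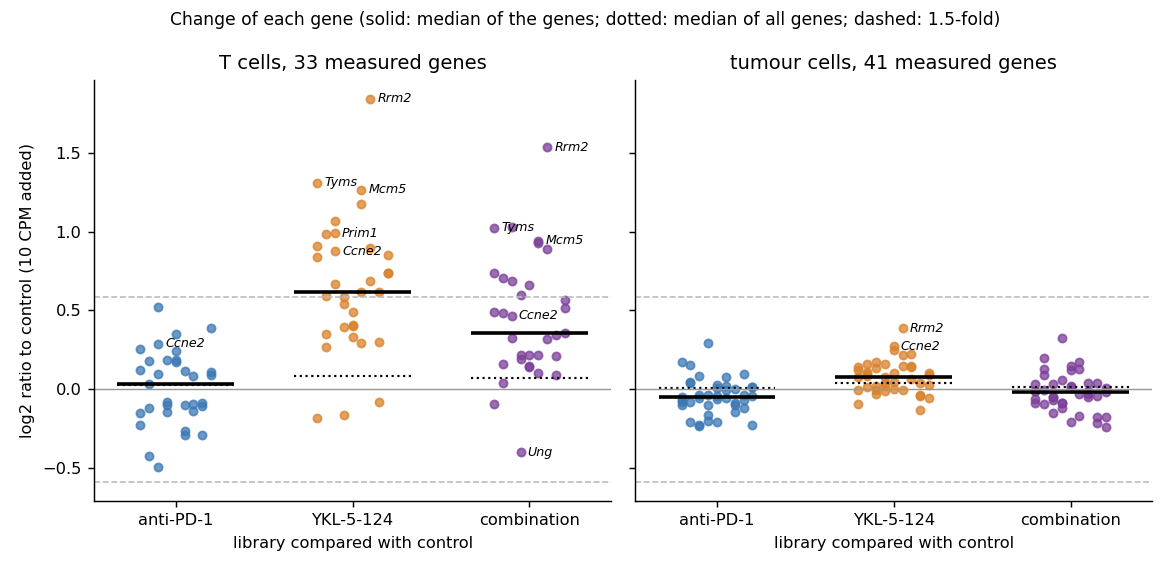
Log2 ratio to control of each measured gene (10 CPM added) in T cells (33 genes) and tumour cells (41 genes), with the median of the genes, the median of all genes and the 1.5-fold lines. In T cells the median lies at 0.62 with YKL-5-124 and 0.36 in the combination, and in tumour cells all points lie inside the 1.5-fold lines.

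Most of the added UMIs in T cells lay in few, deep cells that also held G2/M transcripts. After thinning each cell to 800 UMIs, 32, 20, 60 and 79 T cells had at least 5 UMIs of the G2 and mitosis list. These were 4.01%, 3.75%, 8.88% and 8.16% of T cells, and they held 17.2%, 17.7%, 58.9% and 53.0% of the UMIs of the 41 genes. Their share of T cells and their depth were both larger in the libraries with YKL-5-124, with medians of 2374.5, 2410.0, 5014.5 and 7289 UMIs. Within them the 41 genes were at 3069, 4166, 5527 and 4738 CPM, while T cells with 0 or 1 G2/M UMI were at 965, 896, 1140.4 and 1019 CPM. Without the cells of at least 5 G2/M UMIs, the summed ratio was 1.10 with YKL-5-124 and 0.990 in the combination, and 1 and 2 genes were higher. With every cell weighted equally, 8 and 5 genes were higher. No share of all genes is given under these settings, so these counts have no background. Tumour markers in the G2/M-rich T cells were at 59.6, 161, 72.5 and 97.4 CPM against 108, 93.1, 97.8 and 79.6 CPM in the other T cells, and T cell markers at 9831, 11383, 8510.0 and 8183 CPM against 8876, 9059, 9253 and 8948. The 10 T cells richest in the 41 genes held 28.8%, 30.2%, 31.3% and 17.9% of their UMIs, and without them the level was 968, 961, 1729 and 1625 CPM.

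Counted per cell at equal depth, the size of the difference depended on the number of UMIs asked for. The share of T cells with at least 2 UMIs of the 41 genes among 800 was 18.0% (15.4 to 20.9), 18.4% (15.2 to 21.9), 24.6% (21.4 to 28.0) and 23.9% (21.2 to 26.7). These shares were 54.7%, 57.5%, 63.1% and 63.0% without thinning. With at least 3 UMIs the thinned shares were 4.88%, 7.13%, 10.06% and 9.92%. With at least 5 UMIs they were 0.876%, 1.501%, 3.40% and 4.03%, and 17, 13, 10 and 26 cells under 800 UMIs were left out. In B cells, mostly resting, the shares with at least 2 UMIs were 20.1%, 20.3%, 22.2% and 24.4%. The median B cell held 1510.0, 1613, 1456 and 1568 UMIs and the median T cell 1965, 2205.5, 1997.5 and 2392. With at least 5 UMIs B cells were at 0.175%, 0.26%, 1.11% and 0 of 454, where 3 counts of the total, used here as the limit for a count of 0, allow up to 0.661%. The T cell shares at 2 UMIs were thus near those of B cells, whereas at 5 UMIs the YKL-5-124 and combination T cells stood above every B cell share. This was not particular to T cells. NK cells with at least 5 UMIs were at 1.77%, 1.90%, 3.25% and 3.99%, from only 5, 5, 8 and 14 cells.

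**Figure D4:**
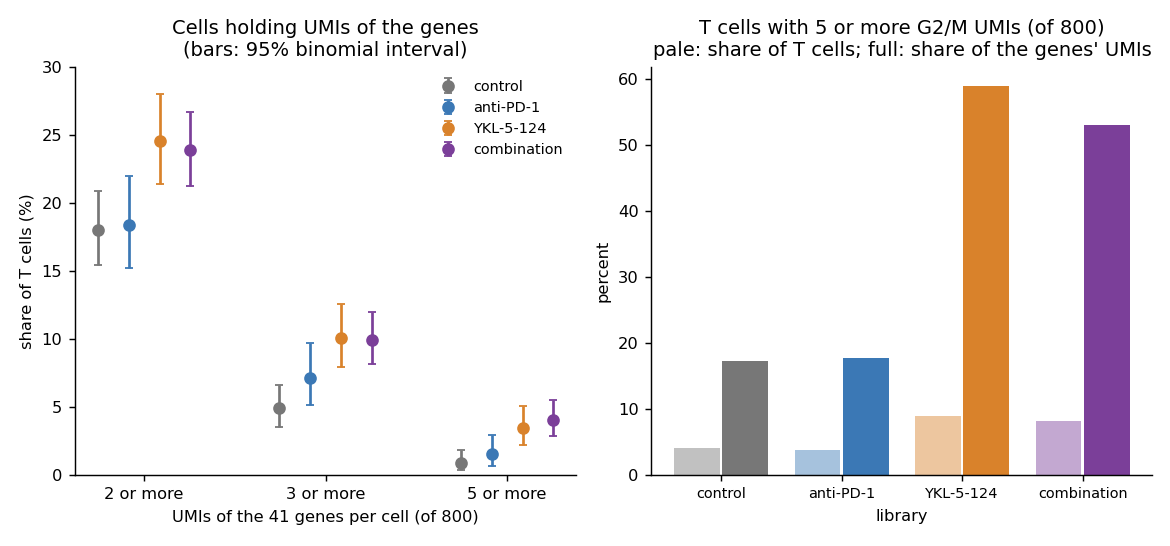
Left, share of T cells (percent) with at least 2, 3 or 5 UMIs of the 41 genes after thinning to 800 UMIs, with exact 95% binomial intervals. Right, T cells with at least 5 G2/M UMIs as a percent of T cells (pale bars) and of the UMIs of the 41 genes they hold (full bars), where 8.88% of cells hold 58.9% of UMIs with YKL-5-124 and 4.01% hold 17.2% in control.

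The T cell subsets differed in which library stood highest. CD8 T cells had UMIs of Cd8a or Cd8b1 and none of Cd4. They numbered 321, 247, 271 and 369 and held the 41 genes at 1315, 1153, 2967 and 1692 CPM. YKL-5-124 alone was the highest, at 2.26-fold of control (2.11 to 2.42), and the combination was at 1.29-fold (1.204 to 1.38) and at 0.571 of YKL-5-124 alone (0.539 to 0.604). CD4 T cells had Cd4 UMIs and none of Cd8a or Cd8b1. They numbered 94, 67, 87 and 170 and were at 1003, 1820.0, 2115 and 2562 CPM. Here the combination was the highest, at 2.55-fold of control (2.19 to 2.99), and anti-PD-1 alone was at 1.81-fold (1.51 to 2.19). The difference between the subsets was not tested. Rrm2 showed the same orders, at 33.1, 31.5, 258 and 97.6 CPM in CD8 and 11.1, 98.8, 133 and 257 CPM in CD4 T cells, where the control value is 2 UMIs.

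Single cells carried much of these subset values. In CD4 T cells of the anti-PD-1 library 3 cells held 45.4% of the UMIs, and without the 10 richest cells that library was at 798 CPM against 804 in control. Without its 10 richest cells the CD4 combination value was 1576 CPM. In CD8 T cells with YKL-5-124 the 10 richest cells held 47.1%, and without them the level was 1889.8 CPM against 926 in control. The G2/M-rich cells were 27 of the CD8 T cells with YKL-5-124, which held 71.0% of the UMIs, and 29 of the CD4 T cells in the combination, which held 71.5%. T cells with neither Cd4 nor Cd8 UMIs were at 1312, 1275, 1319.7 and 1511 CPM, where YKL-5-124 alone was at control's level. A cell without such UMIs may still express these genes, so this set is defined by absent counts only. Absence of counts depends on depth. CD8 T cells with YKL-5-124 had a median of 11170 UMIs if G2/M-rich and 2332 with 0 or 1 G2/M UMI. How far this kept deep, G2/M-rich cells out of the set was not tested. T cells with a Foxp3 UMI, the marker of regulatory T cells, were at 1408, 2044, 4435 and 2607 CPM over only 14, 11, 21 and 50 cells.

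Tumour cells showed small differences. All 41 genes were measured, and 0 passed 1.5-fold in any comparison, beside 0.447% of 8939 genes with anti-PD-1, 0.414% for YKL-5-124 and 1.52% for both agents. Summed ratios to control were 0.969 (0.958 to 0.980) with anti-PD-1, 1.08 (1.07 to 1.09) for YKL-5-124 and 0.997 (0.986 to 1.008) in the combination. At any size, 14, 31 and 16 of the 41 genes were above control in these libraries, beside 52.5%, 61.4% and 55.2% of the 8939 genes, with median log2 ratios of -0.05, 0.08 and -0.01. Tumour cells were deep, at 8908, 9260.0, 8107 and 9433 UMIs per cell, so counting intervals are narrow, but 1 library per group gives no measure of how far 2 tumours differ.

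By role, nucleotide supply was again above control with YKL-5-124, and so were Ccne2 and E2f8, the cyclin and E2F genes. Nucleotide supply was at 983, 989, 1176 and 1059 CPM, 1.196-fold (1.16 to 1.23) with YKL-5-124 and 1.08-fold in the combination. Rrm2 was at 403, 403, 531 and 456 CPM, 1.32-fold with YKL-5-124 (1.26 to 1.37), the largest ratio of a gene in that comparison. Rrm1 was at 174, 175, 209 and 194 CPM and Tyms at 406, 411, 437 and 409 CPM. Control and anti-PD-1 lay close together in all 3 genes, and YKL-5-124 was the highest library. Ccne2 was at 280.4, 269, 341 and 307 CPM, 1.22-fold with YKL-5-124 (1.16 to 1.28). E2f8 was at 48.9, 50.1, 53.4 and 49.8 CPM.

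The summed level of the helicase genes was below control in both libraries with anti-PD-1, with no gene past the fold. It was 1296, 1169, 1359.6 and 1198 CPM, 0.902 of control with anti-PD-1 (0.878 to 0.927) and 0.924 in the combination (0.900 to 0.9496). Mcm2 was at 251, 216, 267 and 235 CPM and Mcm4 at 112, 94.0, 128 and 108 CPM. Mcm5 was at 161, 139, 182 and 148 CPM and Mcm6 at 256, 220.3, 257 and 220.6 CPM. In each of these 4 subunits anti-PD-1 was the lowest library and YKL-5-124 the highest, with anti-PD-1 ratios of 0.842 to 0.862. Gins2 was at 106, 97.0, 103 and 90.0 CPM, Cdc45 at 66.7, 63.9, 66.6 and 58.4 CPM, Cdc6 at 69.9, 62.4, 78.5 and 68.2 CPM and Gmnn at 273, 276, 278 and 270.4 CPM.

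The other roles were close to control. Slbp, at 649, 606, 718 and 628 CPM, was the most abundant of the 41 genes in tumour cells, and Nasp was at 463, 469.8, 514 and 508 CPM. Pcna was at 329.5, 309, 345 and 327 CPM. Usp1, which removes ubiquitin from Pcna, was the gene furthest above control with anti-PD-1 and in the combination, at 97.6, 122, 104 and 125 CPM and ratios of 1.25 (1.14 to 1.37) and 1.28 (1.17 to 1.397). Ung was at 144, 121, 144 and 137 CPM and Pold3, a polymerase delta subunit, at 72.1, 60.4, 69.2 and 59.6 CPM, and these were among the lowest ratios with anti-PD-1, at 0.840 and 0.837. Clspn was at 176, 196, 189 and 193 CPM, Atad2 at 202, 230, 222 and 201 CPM, Hells at 211, 200, 198 and 198 CPM, Uhrf1 at 78.4, 73.5, 88.6 and 78.3 CPM, and Dtl at 94.4, 91.7, 95.8 and 98.9 CPM.

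The tumour cells of each library varied more in these genes than sampling gives. After thinning to 5000 UMIs, which kept 543, 366, 475 and 381 cells, the median was 35, 35, 39 and 34 UMIs of the 41 genes, with a variance of 6.70, 5.96, 7.36 and 6.67 times the mean, where sampling alone gives a ratio near 1. Within each library the UMIs of the 41 genes and of the G2 and mitosis list were nearly unrelated, with Spearman's rho of 0.05, -0.10, -0.01 and -0.16 over those cells, which share 1 library and 1 depth. Each of the 41 genes was higher in cells rich in the other 40 genes than in cells poor in them, in all 4 libraries. The median log2 ratio over the genes was 0.98, and it was largest for Ccne2 (2.11) and Cdc6 (1.65). This is a description of how the genes covary, since the cells were ranked on the same list.

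Ranked instead on G2/M UMIs, the 41 genes divided. In cells rich over cells poor in G2/M UMIs, 15 genes were above 0 in all 4 libraries, 20 were below 0 in all 4 and 6 did not keep 1 sign. Of the 8102 genes measured in all 4, 16.7% were above 0 in each and 24.0% below, and the median over all genes was -0.04 to -0.06 in each library. Those below included 6 of 8 helicase genes: the median log2 ratio was -1.53 for Mcm2, -1.32 for Mcm4, -1.28 for Mcm6, -0.82 for Mcm5, -1.05 for Gins2 and -0.73 for Cdc6. Ung was the lowest at -2.16, and Pcna was at -0.78. Those above included all 3 genes of nucleotide supply, at 1.86 for Rrm2, 0.77 for Rrm1 and 0.39 for Tyms, and Gmnn at 0.19. E2f8 (2.08) and Cenpu, a centromere protein (1.68), were among the highest. Genes of helicase loading and activation other than Gmnn and Cdc45 thus lay on the opposite side from nucleotide supply. Against control, the genes below 0 in this ranking had median log2 ratios of -0.09, 0.04 and -0.07 in the 3 treated tumour libraries, and those above 0 had 0.02, 0.11 and 0.02. In T cells the genes above 0 had 0.87 with YKL-5-124 and 0.69 in the combination, with 7 of 10 measured genes higher in each. Those below 0 had 0.59 and 0.22 there, with 10 and 4 of 19 higher. Of all 6787 genes measured in T cells, 5.82% and 7.06% were higher in these libraries.

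**Figure D5:**
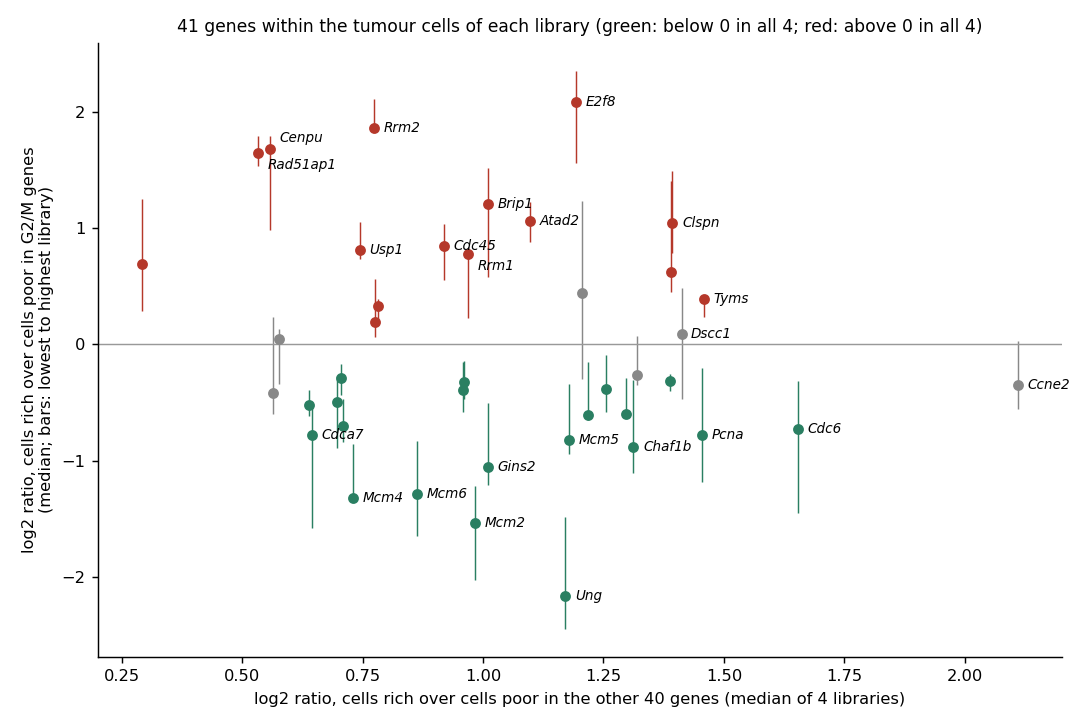
Each point is 1 of the 41 genes within tumour cells: log2 ratio between cells rich and poor in the other 40 genes (x axis) and between cells rich and poor in G2/M UMIs (y axis), as medians of 4 libraries with the range as bars on the y axis. All genes lie right of 0, while 20 lie below 0 on the y axis in all 4 libraries (Ung lowest, -2.16) and 15 above (E2f8 highest, 2.08).

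In NK cells, 31 of the 41 genes were measured. With YKL-5-124 7 were higher and 1 lower, beside 13.8% of 6782 genes past the fold, and the summed ratio was 1.25 (1.14 to 1.36). In the combination 3 were higher and 0 lower, beside 11.9%, at 1.17 (1.08 to 1.28), and with anti-PD-1 1 was higher and 2 lower, beside 13.1%. The 10 CPM minimum is on the mean of the libraries, and some of these genes passed it through libraries where they were high. Hells and Gins2, higher with YKL-5-124, were both at 9.63 CPM in control. Blm, higher with anti-PD-1, was at 3.85 CPM there. These counts cannot be separated from this choice. Hells was at 9.63, 19.2, 44.5 and 26.4 CPM and Mcm2 at 36.6, 36.5, 76.3 and 69.5 CPM, both highest with YKL-5-124. Slbp, at 362, 358, 375 and 355 CPM, lay close together in all 4. Without the 10 richest cells the levels were 1375, 1270.0, 1396 and 1539 CPM, and thinned shares with at least 2 UMIs were 34.6%, 33.5%, 33.7% and 33.05%. NK cells with under 5 G2/M UMIs among 800 were at 1426, 1324, 1773 and 1596 CPM, again highest with YKL-5-124.

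In B cells and in monocytes and macrophages few genes passed the fold. Of 28 genes measured in B cells, 0 were higher and 3 lower with anti-PD-1, beside 7.6% of 6554 genes, 0 and 0 with YKL-5-124, beside 5.9%, and 1 and 0 in the combination, beside 7.54%. Fen1 was at 40.5 CPM in control and 20.9 with anti-PD-1, a ratio of 0.516, and Prim1 was the gene past the fold in the combination, at 32.9 against 17.9 CPM (19 and 28 UMIs in control and combination). Of 18 genes measured in monocytes and macrophages, 1 was higher and 2 lower with anti-PD-1, beside 8.61% of 6596 genes, 0 and 1 with YKL-5-124, beside 8.25%, and 1 and 1 in the combination, beside 6.43%. Ubr7, the gene higher in the combination, was at 15.8 against 6.30 CPM in control. It was thus under the 10 CPM minimum in control and passed it through other libraries. Rrm2 was lower in monocytes and macrophages with YKL-5-124, at 10.3 against 27.3 CPM (0.378, 0.21 to 0.68). Tumour markers in the same class were also highest in control, at 129, 64.3, 50.4 and 65.6 CPM, and were at 1597 CPM in the 4 control cells with 5 or more G2/M UMIs. C1qa, a macrophage complement gene, was at 608, 457, 313 and 165 CPM. Their part in the difference was not tested.

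In neutrophils the list, tumour markers and granule genes all differed between libraries. The whole list held only 47, 34, 1434 and 469 UMIs there, and 1 UMI in control is 11.1 CPM. The 10 CPM minimum is on the mean of the libraries, so a gene could pass it through the libraries where it was high. The counts of higher genes that follow cannot be separated from this choice. Of 25 measured genes 21 were higher and 1 lower in the combination, beside 35.7% and 14.7% of 5746 genes. With YKL-5-124 12 were higher and 2 lower, beside 28.3% and 19.9%, and with anti-PD-1 4 were higher and 12 lower, beside 26.9% and 24.3%. The summed level was 523, 341, 938 and 1559.5 CPM over 89, 92, 687 and 182 cells. Tumour markers in the same cells were at 200.2, 161, 504 and 944 CPM, with 11, 9, 18 and 17 of the 19 detected, or 5.17%, 5.32%, 17.2% and 40.1% of their free RNA level. In the combination 3 cells held 61.6% of the UMIs, and the 10 richest cells had tumour markers at 4490 CPM. The summed ratio of the combination was 2.98, but 1.29 with cells weighted equally and 4.69 with free RNA subtracted, and that of YKL-5-124 was 1.79, but 1.004 with cells weighted equally. Granule genes of immature neutrophils also differed: Ngp was at 33.4, 10.04, 22676 and 2331 CPM, Ltf at 22.2, 10.04, 3103 and 289 CPM, and Camp at 0, 0, 6549 and 751.5 CPM. The part of these markers in the result was not tested.

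Over the 24 sums of 6 classes by 4 libraries, the genes outside the list whose level followed its sum most closely were Mcm7 (Spearman's rho 0.975) and Smc2, a condensin subunit (0.974), followed by Dnmt1, the maintenance DNA methyltransferase, Rad21, a cohesin subunit, and Rbbp7, a histone-binding protein, among 7892 genes. The 39 listed genes that could be ranked had values from 0.577 for Cenpu to 0.979 for Rrm1. These points share libraries.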

How the data were processed

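The authors deposited 1 matrix of whole UMI counts for each of the 4 groups, with all barcodes. The submitters' processing notes list bcl2fastq, Cell Ranger and the build hg19. The software version is 3.0.0 per the file headers. Since the gene IDs are mouse Ensembl IDs, the build behind the counts is uncertain. The 41 genes and all lists were chosen with earlier results of these data known. The scoring rule of the marker gates (at least 2 marker UMIs and 3 times those of the next class, after subtracting 10% as free RNA) and the removal of barcode copies were set after the data were seen.

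Counts of a class were added up within each library and scaled to CPM. Levels have exact Poisson, ratios exact conditional binomial and shares exact binomial intervals. With 1 library per group no p-value was made. Log2 ratios used a pseudocount of 10 CPM. Named genes were fixed members and, per class and comparison, the 3 highest and lowest ratios; others not in the list were picked after their values were seen, as were the cut of 5 G2/M UMIs and the 10 richest cells. The calculations were tested on simulated counts. Scrublet in Scanpy 1.11.5 scored doublets as an alternative only; its own threshold called 2, 22, 53 and 3 cells, so the highest 80, 42, 116 and 107 scores were removed there. Other alternatives were another pseudocount, a 2-fold threshold, size factors, cells weighted equally, higher depth and marker minimums, free RNA subtraction and other thinning. The scripts ran in Python 3.11.15 with pandas 2.3.3, SciPy 1.17.1, NumPy 2.4.6 and Matplotlib 3.10.9.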

Additional observations from a re-analysis of the deposited data

How the results depend on the processing

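No paired analysis was possible because each group has 1 library. Values are log2 ratios of summed levels to control unless they are counts of genes past 1.5-fold, and the cause of each move was not tested. No share of all genes under the same setting stands beside these counts. In T cells, leaving out cells with at least 5 G2/M UMIs, an alternative chosen after seeing the data, gave 0.13 for YKL-5-124 with 1 gene higher and 1 lower, and -0.014 for the combination, a reversed sign, with 2 genes higher. Under it Clspn (-0.037), Gins2 (-0.073), Gmnn (-0.22) and Uhrf1 (-0.15) reversed with YKL-5-124, and Cdc45 (-0.14) and Gmnn (-0.080) in the combination. The YKL-5-124 and combination ratios were 0.73 and 0.47 with size factors, 0.51 and 0.36 with cells weighted equally (8 and 5 genes higher) and 1.15 and 0.86 with free RNA subtracted, where 17 genes were higher in the combination. A 2-fold threshold left 5 and 3 genes. With anti-PD-1, 2 genes were higher and 1 lower at a pseudocount of 1 CPM, 1 higher at a higher depth minimum, and 2 higher and 2 lower with free RNA subtracted. The share of T cells with at least 2 UMIs was 11.5 percentage points above control with YKL-5-124 when thinned to 1200 UMIs, against 6.53 at 800.

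In tumour cells the YKL-5-124 ratio was 0.080 without the 3 most abundant genes, 0.063 with size factors, 0.069 with cells weighted equally and 0.048 without the G2/M-rich cells. The combination was at -0.026 without those 3 genes, -0.027 with size factors, -0.040 with cells weighted equally and 0.014 with free RNA subtracted. Anti-PD-1 was at -0.071 with cells weighted equally, with 1 gene higher, and at -0.0090 without the G2/M-rich cells. Of 3762 values of single genes under the alternatives, 119 moved beyond their counting interval, 6 reversed as named and 3637 did neither.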

Other observations

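Among genes of replication stress and repair outside the 41, 9 were measured in T cells. Of these, 2 were higher with YKL-5-124 and 2 in the combination, beside 5.82% and 7.06% of 6787 genes. Cdkn1a, one of the G1/S regulators, which encodes the cyclin-dependent kinase inhibitor p21, was at 61.7, 58.8, 79.2 and 112 CPM in the same order of libraries, with the combination the highest. It was chosen with its values in view. Plasma cells, which secrete antibody, held the 41 genes at 847, 757, 1503 and 774 CPM over 34, 32, 15 and 12 cells.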
